A study of Mus musculus with 9 samples.

Results

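The mesenchymal cells of forelimb buds homozygous for the E1C8 allele (E1C8Δ/Δ) were compared with those of wild-type (Wt) forelimb buds across the transcriptome. The allele lacks EC1 and CRM8, which belong to the cis-regulatory landscape of *Grem1*, and arose by genome editing of CRM8 in zygotes that already carried the EC1 deletion, so that both deletions lie on the same chromosome. Both genotypes were kept on a Swiss Albino background, and no control that carries the EC1 deletion alone was analysed here. Forelimb buds were taken at E10.75, with 37 to 39 somites. Each library held the pair of forelimb buds of 1 embryo, and there were 3 libraries per genotype. Droplet sequencing of transcript 3′ ends counted unique molecular identifiers (UMIs), each standing for 1 captured RNA molecule. Cells counted as mesenchymal when they had more than 2500 genes, fewer than 200000 UMIs, less than 10% mitochondrial UMIs, at least 3 UMIs of *Prrx1*, a transcription factor gene of limb mesenchyme, and none of *Lbx1*, *Epcam*, *Cdh5* or *Tyrobp*, which mark muscle precursors, epithelium, vessels and macrophages. This rule kept 23408 of the 36007 filtered cells of both genotypes, 10373 Wt and 13035 E1C8Δ/Δ cells. The whole series, with the 3 libraries of the E1C5Δ/Δ allele, held 52432 filtered cells.

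The limb bud grows under a feedback loop between its posterior mesenchyme and the apical ectodermal ridge. GREM1, secreted by the mesenchyme, binds bone morphogenetic proteins (BMPs) and keeps them from their receptors. The ridge, which secretes FGFs, is sensitive to BMP activity, and ridge FGFs in turn sustain *Shh* in the posterior mesenchyme. SHH feeds back on *Grem1* and on the distal *Hox* genes that pattern the handplate.

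Cell numbers and depth were uneven. Wt replicates 1 to 3 held 4106, 5676 and 591 mesenchymal cells and E1C8Δ/Δ replicates 1 to 3 held 411, 6561 and 6063. The median depth was 30402, 34905.5 and 47474 UMIs per cell in Wt and 26290, 17102 and 24562 in E1C8Δ/Δ, so that every E1C8Δ/Δ library was shallower per cell than every Wt library. Mesenchymal cells made up 61.7% to 64.5% of the filtered Wt cells and 66.2% to 68.0% of the filtered E1C8Δ/Δ cells. Pairs of libraries shared at most 0.487% of the barcodes of the smaller library when both were Wt or E1C8Δ/Δ. Embryo sex was read from *Xist* and genes of the Y chromosome. The Wt embryos were male, at 133 to 153 CPM of Y-linked genes, as was E1C8Δ/Δ replicate 3 at 108 CPM, while E1C8Δ/Δ replicates 1 and 2 were female, at 675 and 993 CPM of *Xist*. *Xist* in the males Wt replicate 1 (23.4 CPM) and E1C8Δ/Δ replicate 3 (9.65 CPM) lay above the 0.0320 and 0.162 CPM of Wt replicates 3 and 2. Y-linked genes in E1C8Δ/Δ replicate 1 (3.02 CPM) lay above the 0.0724 CPM of the other female, E1C8Δ/Δ replicate 2. Genes on X and Y were not tested. *Prrx1* itself was used to choose the cells, and of the other mesenchymal genes listed, *Pdgfra*, a growth factor receptor gene, fell by 0.41 and *Twist1*, a mesenchymal transcription factor gene, rose by 0.36 on the log2 scale (adjusted p = 0.0256 and 0.044, and up to 0.0942 and 0.143 without single libraries).

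Levels were summed over the mesenchymal cells of a library and are given as CPM, counts scaled to the same total in each library. A sum cannot tell fewer expressing cells from less RNA per cell. Of 16034 genes tested with edgeR's quasi-likelihood test, 1347 differed at an adjusted p under 0.05, which is 8.4% of genes. Of these, 517 (3.22%) were higher and 830 (5.18%) were lower in E1C8Δ/Δ. The typical change was small, with a median of 0.53 on the log2 scale among genes that rose and 0.49 among those that fell, and 109 and 110 of them changed by more than 1. The 3 libraries of one genotype lay entirely above or below those of the other for 32.6% of all genes. Embryo sex was partly confounded with genotype, and the number of calls fell when sex entered the fit. With a covariate for sex, 25 genes were higher and 10 lower. All Wt embryos were male, so in this fit the genotype effect rests on E1C8Δ/Δ replicate 3 against Wt. The parts of sex and of this reduced contrast in the lower number cannot be told apart. A fit of male libraries alone, 1 against 3, sets the same library against Wt. There the spread comes from the Wt libraries, and the lone E1C8Δ/Δ library is assumed to vary like them. Among the 1347 called genes the log2 change was at a median of 0.973 times its size with the covariate and 0.964 times in male libraries. For 514 of the 517 higher and 828 of the 830 lower genes, every E1C8Δ/Δ library, replicate 3 included, lay beyond every Wt library. A ratio near 1 was thus largely set by the choice of genes. The number also depended on single libraries and lay between 154 without E1C8Δ/Δ replicate 2 and 2117 without Wt replicate 3. In between lay 290 without E1C8Δ/Δ replicate 1, 395 without replicate 3, 515 without Wt replicate 2 and 663 without Wt replicate 1. Of 88 genes named here that passed the threshold, leaving aside the low-level genes of the closing section, 24 passed without each library in turn. They are *Grem1*, *Fmn1*, *Dph6*, *Id3*, *Bambi*, *Tfap2b*, *Osr2*, the 6 *Snhg* genes below, *Ddit4*, *Mki67*, *Hist1h2ae*, *Hist2h2be*, *Hbb-bt*, *Acaa1a*, *Gm266*, *5430416N02Rik*, *Gm10320*, *Gm11361* and *Eif3j2*. With the covariate for sex over the 6 libraries 13 of the 88 passed, namely *Tfap2b*, *Osr2*, the 6 *Snhg* genes, *Hbb-bt*, *Gm266*, *5430416N02Rik*, *Gm10320* and *Gm11361*. The same covariate over all 9 libraries, a fit added after the data were seen, left 17 of the 88. There *Grem1*, *Fmn1*, *Smoc1*, *Hhip*, *Hoxd13* and *Bambi* passed as well, while *Hbb-bt* and *Gm10320* did not (adjusted p = 0.337 and 0.108).

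**Figure D1:**
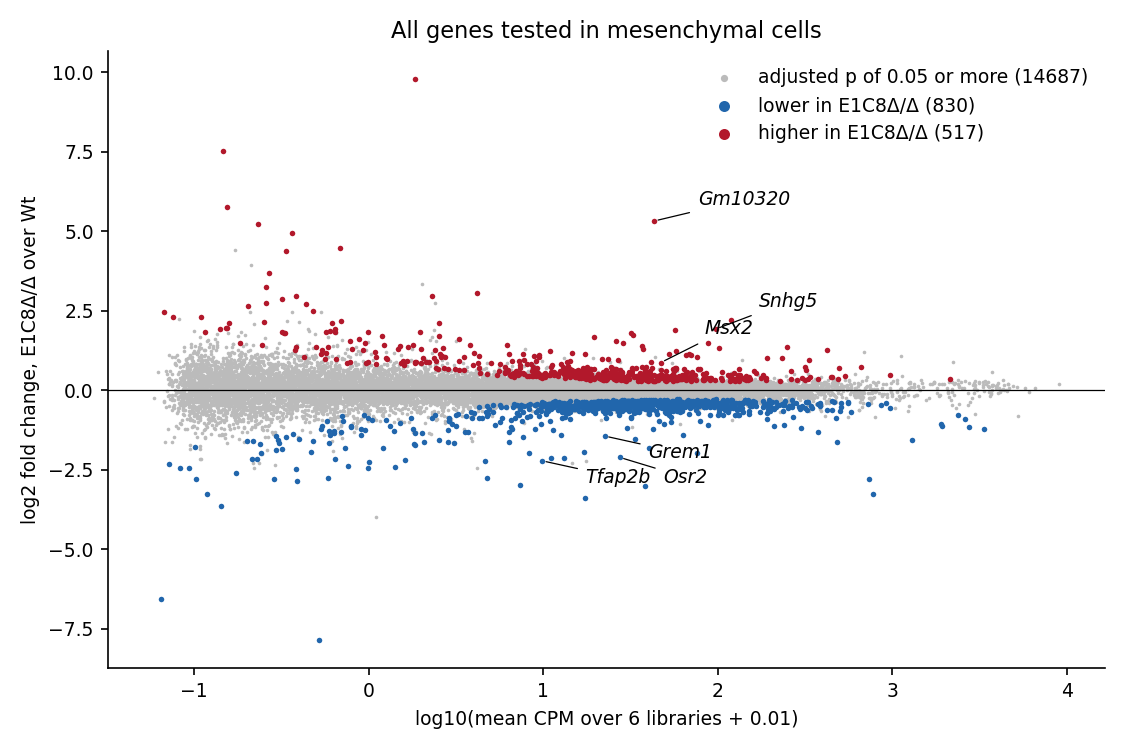
Each point is 1 of 16034 genes tested in mesenchymal cells, by its mean level over the 6 libraries (x axis, log10 of CPM plus 0.01) and its log2 fold change of E1C8Δ/Δ over Wt (y axis). The 517 genes in red were higher and the 830 in blue lower in E1C8Δ/Δ, and most of both lie close to the line of no change.

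*Grem1* (ENSMUSG00000074934, mm10 chromosome 2, 113746164 to 113758646, minus strand), the gene whose enhancers the allele lacks, was measured at 41.9, 30.1 and 27.3 CPM in the Wt libraries and at 9.61, 11.9 and 14.5 CPM in the E1C8Δ/Δ libraries. The highest E1C8Δ/Δ library lay well below the lowest Wt library. *Grem1* thus fell 2.71-fold, from 33.1 ± 7.76 to 12 ± 2.43 CPM (SD, n = 3 libraries each), a log2 change of -1.44 ± 0.184 (SE) with an adjusted p of 0.00588. With the covariate for sex over the 6 libraries the change was -1.20 and the adjusted p was 0.122. With this covariate over all 9 libraries the change was -1.42 (adjusted p = 0.0421). That fit was added after the data were seen, and it takes the sex effect as equal in all 3 genotypes. The male E1C8Δ/Δ library alone, at 14.5 CPM, gave a change of -1.18 against the Wt libraries.

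Genes next to *Grem1* fell as well. *Fmn1*, the formin gene whose introns hold limb enhancers of *Grem1*, was at 4.41, 3.87 and 2.90 CPM in Wt and 1.54, 1.22 and 1.22 CPM in E1C8Δ/Δ, a log2 change of -1.55 ± 0.204 with an adjusted p of 0.00651. *Scg5*, which codes for a secretory granule protein, was at 0.868, 1.38 and 1.69 CPM in Wt and at 0.0701, 0.221 and 0.310 CPM in E1C8Δ/Δ, a log2 change of -2.38 (adjusted p = 0.0108). Both flank *Grem1* directly, at 29.4 and 17.7 kb. Of 8 tested genes within 1 Mb of *Grem1*, 4 fell and none rose. The other two were *Aqr*, an RNA helicase gene at 343 kb that fell by 0.64, and *Dph6*, a diphthamide synthesis gene at 758 kb that fell by 0.84 on the log2 scale. Without E1C8Δ/Δ replicate 2, *Scg5* and *Aqr* no longer passed, with adjusted p-values of 0.0613 and 0.0568. Within 10 Mb, 26 of 156 genes passed (16.7%), 9 higher and 17 lower, and over chromosome 2 without *Grem1* 11.1% passed. The other autosomes lay between 6.59% and 10.1%. Without E1C8Δ/Δ replicate 2, 2 of the 8 neighbours within 1 Mb passed.

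Among 13 genes for BMP antagonists, *Grem1* itself, *Smoc1* and *Twsg1* fell and none rose, 23.1% against 8.4% of all genes. This share counts *Grem1*, the gene whose enhancers the allele lacks, so it is partly set by the design. *Smoc1*, a matrix protein gene, went from 20.2, 17.8 and 13.3 CPM to 10.4, 10.3 and 8.56 CPM, a log2 change of -0.83 ± 0.156. *Twsg1*, whose product binds BMPs together with chordin, fell by 0.41. The classic antagonist gene *Nog* was at 1.52, 1.24 and 1.22 CPM in Wt and 2.88, 2.00 and 1.65 CPM in E1C8Δ/Δ and did not pass (adjusted p = 0.12). Of 17 genes for BMP ligands, receptors and SMADs, 1 fell, the signal transducer *Smad5*, by 0.36, a share of 5.88% against 8.4% of all genes. *Bmp4*, a ligand gene, had a log2 change of -0.24 and an adjusted p of 0.132. All 3 of these calls were lost without any 1 of the E1C8Δ/Δ replicates, that of *Smoc1* also without Wt replicate 2 and that of *Smad5* without Wt replicate 1 or 2, with adjusted p up to 0.0656 for *Smoc1*, 0.0784 for *Twsg1* and 0.116 for *Smad5*.

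Of 13 genes that BMP signals induce, *Id3*, *Bambi*, *Msx1* and *Msx2* rose in E1C8Δ/Δ. These 4 rose and none fell, 30.8% of the list against 8.4% of all genes. The median log2 change was 0.35, against -0.0045 over all genes tested. The study had already reported *Msx1*, *Msx2*, *Id1* and *Id2* as upregulated in mutant progenitor clusters of these data, and chose *Msx2* for a signature. The share and the median thus give no separate support. *Id3*, an inhibitor of bHLH transcription factors, stood at 242, 242 and 233 CPM in Wt and at 432, 404 and 354 CPM in E1C8Δ/Δ. The 3 Wt values lay close together, and all E1C8Δ/Δ values were above them, for a log2 change of 0.73 ± 0.0925 (adjusted p = 0.00585). *Bambi*, which codes for a decoy receptor that dampens BMP signals, went from 43.4, 41.8 and 42.9 CPM to 75.9, 64.9 and 65.0 CPM, a log2 change of 0.68 ± 0.0859 (adjusted p = 0.00571). *Msx2*, a homeobox gene, was at 27.2, 34.3 and 38.8 CPM in Wt and at 66.1, 64.6 and 52.5 CPM in E1C8Δ/Δ, 1.83-fold higher (adjusted p = 0.0116). Its relative *Msx1* rose by 0.60 on the log2 scale. *Id2* had a log2 change of 0.46 with an adjusted p of 0.0509. *Id1* was at 457 and 462 CPM in the female E1C8Δ/Δ libraries and at 294 CPM in the male one, within the Wt values of 281 to 341 CPM, and its log2 change of 0.35 (adjusted p = 0.222) became -0.11 with the covariate for sex. Without E1C8Δ/Δ replicate 1 or 2, *Msx1* and *Msx2* no longer passed, with adjusted p up to 0.0682 and 0.0569.

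The hedgehog genes *Shh*, *Hhip* and *Hand2* fell. *Shh* itself, expressed by the posterior organizer, was at 9.42, 6.10 and 9.65 CPM in Wt and at 6.38, 3.82 and 3.69 CPM in E1C8Δ/Δ. E1C8Δ/Δ replicate 1 overlapped Wt replicate 2, and the log2 change of -0.93 ± 0.241 passed the threshold narrowly (adjusted p = 0.0467). *Hhip*, a target gene whose product binds and restrains SHH, was at 4.48, 4.23 and 4.08 CPM in Wt and 2.66, 1.83 and 1.65 CPM in E1C8Δ/Δ, 2.2-fold lower (adjusted p = 0.0131). *Hand2*, a posterior transcription factor gene upstream of *Shh*, fell by 0.39 (adjusted p = 0.041). These 3 of 14 genes on the list fell and none rose, 21.4% against 8.4% of all genes that passed. Of the 14, 8 lay entirely below Wt, against 17.1% of all genes. The target genes *Ptch1*, the SHH receptor gene, and *Gli1*, a transcriptional effector gene, had log2 changes of -0.52 (adjusted p = 0.0601) and -0.55 (adjusted p = 0.05) and did not pass. Without Wt replicate 3 both passed, at -0.66 and -0.67 (adjusted p = 0.0173 and 0.0162). Without Wt replicate 1 *Ptch1* was at -0.34 (adjusted p = 0.118). All 3 calls were lost without E1C8Δ/Δ replicate 2 or 3, that of *Shh* also without Wt replicate 1 or 3 and that of *Hand2* without any 1 of the Wt replicates, with adjusted p up to 0.186 for *Shh*, 0.0735 for *Hhip* and 0.19 for *Hand2*. With cells thinned to 10000 UMIs the change of *Shh* was -0.41 (adjusted p = 0.287).

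FGF ligand and receptor genes of the mesenchyme moved both ways, with 2 falls and 1 rise among 7 genes, 42.9% against 8.4% of all genes. *Fgfr1*, the main receptor gene of the mesenchyme, fell from 165, 150 and 161 CPM to 102, 127 and 120 CPM, by 0.45 on the log2 scale, and *Fgf18*, a ligand gene at about 5 CPM in Wt, fell by 0.71. *Fgfr2* rose by 0.40. Of 10 genes that respond to FGF signals, the ETS factor genes *Etv5* and *Etv1* fell, by 0.73 and 0.50, and none rose. That is 20% of this list, against 8.4% of all genes. *Etv5* was at 31.5, 27.5 and 25.8 CPM in Wt and 17.4, 15.2 and 18.7 CPM in E1C8Δ/Δ. *Etv5* was lost without E1C8Δ/Δ replicate 2 alone (adjusted p = 0.0569). *Fgfr1*, *Fgfr2* and *Etv1* were lost without any 1 of the E1C8Δ/Δ replicates or Wt replicate 2, *Fgfr1* and *Fgfr2* also without Wt replicate 1, and *Fgf18* when any 1 of the 6 libraries was left out, with adjusted p up to 0.0899 for *Fgfr1*, 0.141 for *Fgfr2*, 0.121 for *Etv1* and 0.0974 for *Fgf18*.

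**Figure D2:**
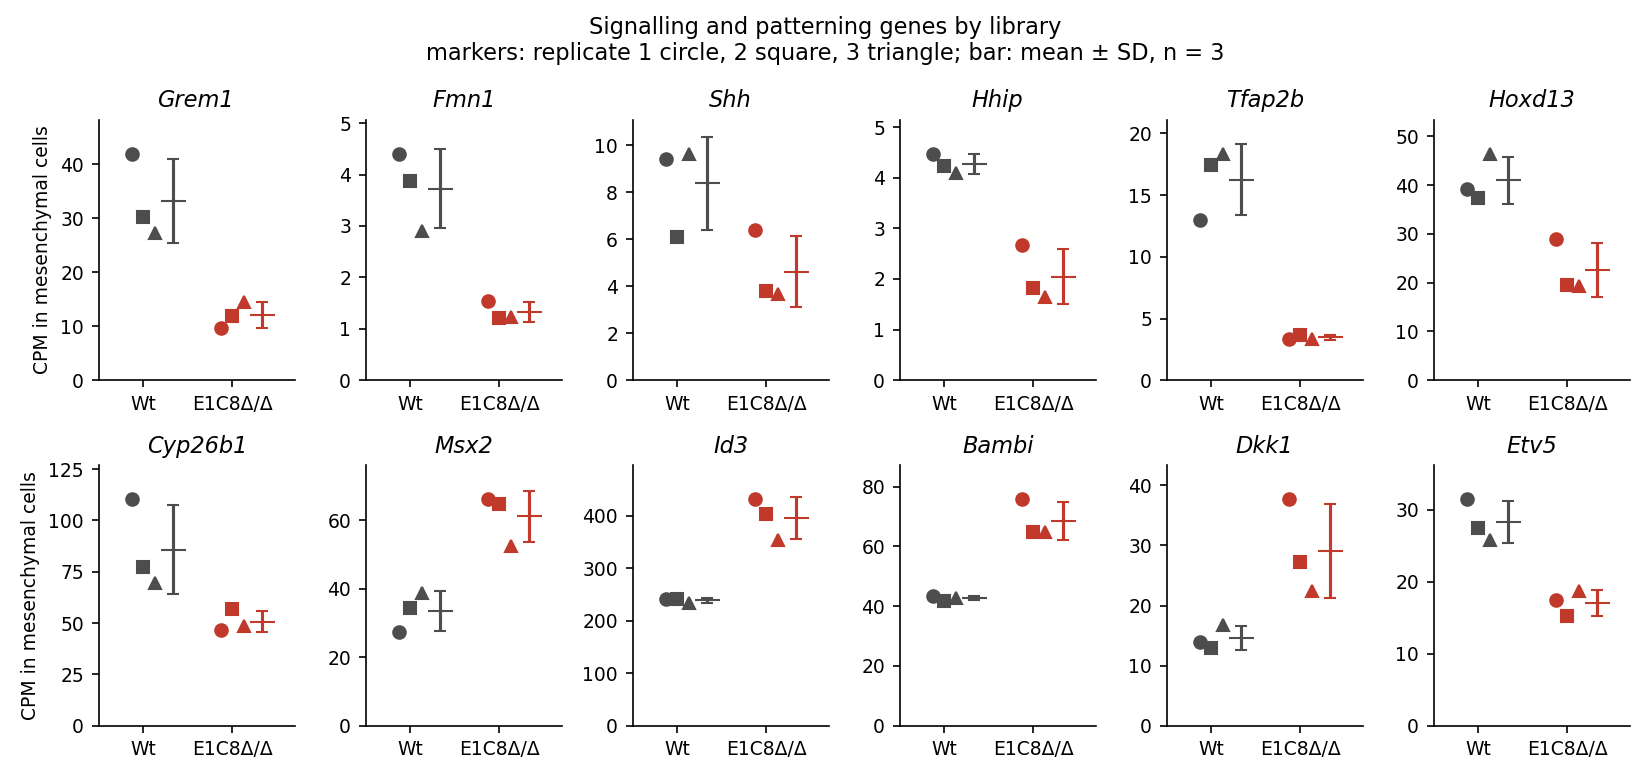
Levels (CPM, y axes from 0) of 12 signalling and patterning genes in the 3 Wt (grey) and 3 E1C8Δ/Δ (red) libraries, with markers for replicates 1 to 3 and bars for the mean ± SD. *Shh* is the one gene shown whose groups overlap, and *Tfap2b* shows a wide gap, at 13 to 18.4 CPM against 3.35 to 3.67 CPM. All 12 genes passed the threshold, and 514 of the 517 rises and 828 of the 830 falls lie without overlap.

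Genes of the distal handplate had the lowest median log2 change of the developmental lists, at -0.66. Of 14 on this list 5 fell and none rose, 35.7% against 8.4% of all genes. The study chose *Tfap2b*, *Jag1*, *Hoxa13* and *Hoxd13* as a signature because they were downregulated in mutant cells of these data. The rank of the list is thus partly set by this choice and gives no separate support. *Tfap2b*, an AP-2 transcription factor gene, was at 13, 17.4 and 18.4 CPM in Wt and at 3.37, 3.67 and 3.35 CPM in E1C8Δ/Δ. The 3 E1C8Δ/Δ libraries were nearly equal and 4.65-fold lower than Wt, a log2 change of -2.22 ± 0.150 (adjusted p = 0.000366, and 0.00977 with the covariate for sex). With cells thinned to 10000 UMIs the change of *Tfap2b* was smaller, at -1.52 (adjusted p = 0.00321). *Hoxd13*, which specifies the handplate, was at 39.2, 37.3 and 46.4 CPM in Wt and 28.9, 19.6 and 19.3 CPM in E1C8Δ/Δ, a log2 change of -0.88 (adjusted p = 0.0162). *Jag1*, a Notch ligand gene, fell by 0.82, *Gja3*, a connexin gene, by 0.87, and *Cyp26b1*, whose enzyme degrades retinoic acid, by 0.76. *Hoxa13*, the other handplate *Hox13* gene, was at 10.3, 8.49 and 12.6 CPM in Wt and 8.84, 5.49 and 6.25 CPM in E1C8Δ/Δ, overlapping, with a log2 change of -0.64 (adjusted p = 0.0716). With cells thinned to 10000 UMIs the change of *Hoxa13* was -0.17 (adjusted p = 0.642). *Hoxd13*, *Gja3* and *Jag1* were lost without E1C8Δ/Δ replicate 2 or 3 and *Jag1* also without any 1 of the Wt replicates, with adjusted p up to 0.0772, 0.0781 and 0.155. The log2 change of *Gja3* was -0.53 with cells thinned to 10000 UMIs. *Cyp26b1* was lost without any 1 of the E1C8Δ/Δ replicates or Wt replicate 2 (up to 0.104).

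Lists for the other positions in the bud moved less. Of 11 genes of peripheral progenitors, *Msx1*, *Msx2* and *Bambi* rose, all 3 also on the list of BMP targets, and none fell. That is 27.3% against 8.4% of all genes. The study chose *Lhx2*, *Asb4*, *Msx2* and *Rspo4* of this list because they were upregulated in mutant cells of these data. *Asb4*, the gene of the list with the highest level in Wt, was at 402, 389 and 401 CPM in Wt and 408, 504 and 464 CPM in E1C8Δ/Δ, with a log2 change of 0.21 (adjusted p = 0.202). *Lhx2*, a LIM homeobox gene, and *Rspo4*, a WNT potentiator gene, had changes of 0.13 and 0.50 and did not pass. Of 13 proximal genes 2 rose (15.4%, against 8.4% of all genes), the retinoic acid receptor gene *Rarb* by 0.63 and the homeobox gene *Gsc* by 0.67. None of 10 anterior genes passed, with log2 changes from -0.22 to 0.73. The posterior list held the falls of *Shh* and *Hand2* and a rise of *Dkk1*, a WNT inhibitor gene, which was at 14.0, 12.9 and 16.8 CPM in Wt and 37.7, 27.2 and 22.4 CPM in E1C8Δ/Δ, a log2 change of 0.99. Of 26 WNT genes 3 rose and none fell, *Dkk1*, the ligand gene *Wnt11* by 0.96 and the potentiator gene *Rspo2* by 0.56. This share of 11.5% lies near the 8.4% of all genes. Of 11 retinoic acid genes 1 rose (*Rarb*) and 1 fell (*Cyp26b1*), 18.2% against the same 8.4%. Of 13 cartilage genes 1 fell, *Wwp2*, a ubiquitin ligase gene of chondrocytes, by 0.53, a share of 7.69% that lies near the 8.4% of all genes. The calls of *Rarb*, *Gsc*, *Dkk1*, *Wnt11*, *Rspo2* and *Wwp2* were lost without E1C8Δ/Δ replicate 2, and apart from *Dkk1* without replicate 1. *Rarb*, *Gsc*, *Wnt11* and *Wwp2* were also lost without replicate 3, *Rarb* and *Gsc* without Wt replicate 1 or 3, *Wnt11* without Wt replicate 1 or 2, and *Dkk1* and *Wwp2* without Wt replicate 2. With the covariate for sex the log2 change of *Dkk1* was 0.63 (adjusted p = 0.275). The adjusted p reached 0.124 for *Rarb* and for *Gsc*, 0.0602 for *Dkk1*, 0.0879 for *Wnt11*, 0.0726 for *Rspo2* and 0.103 for *Wwp2*.

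**Figure D3:**
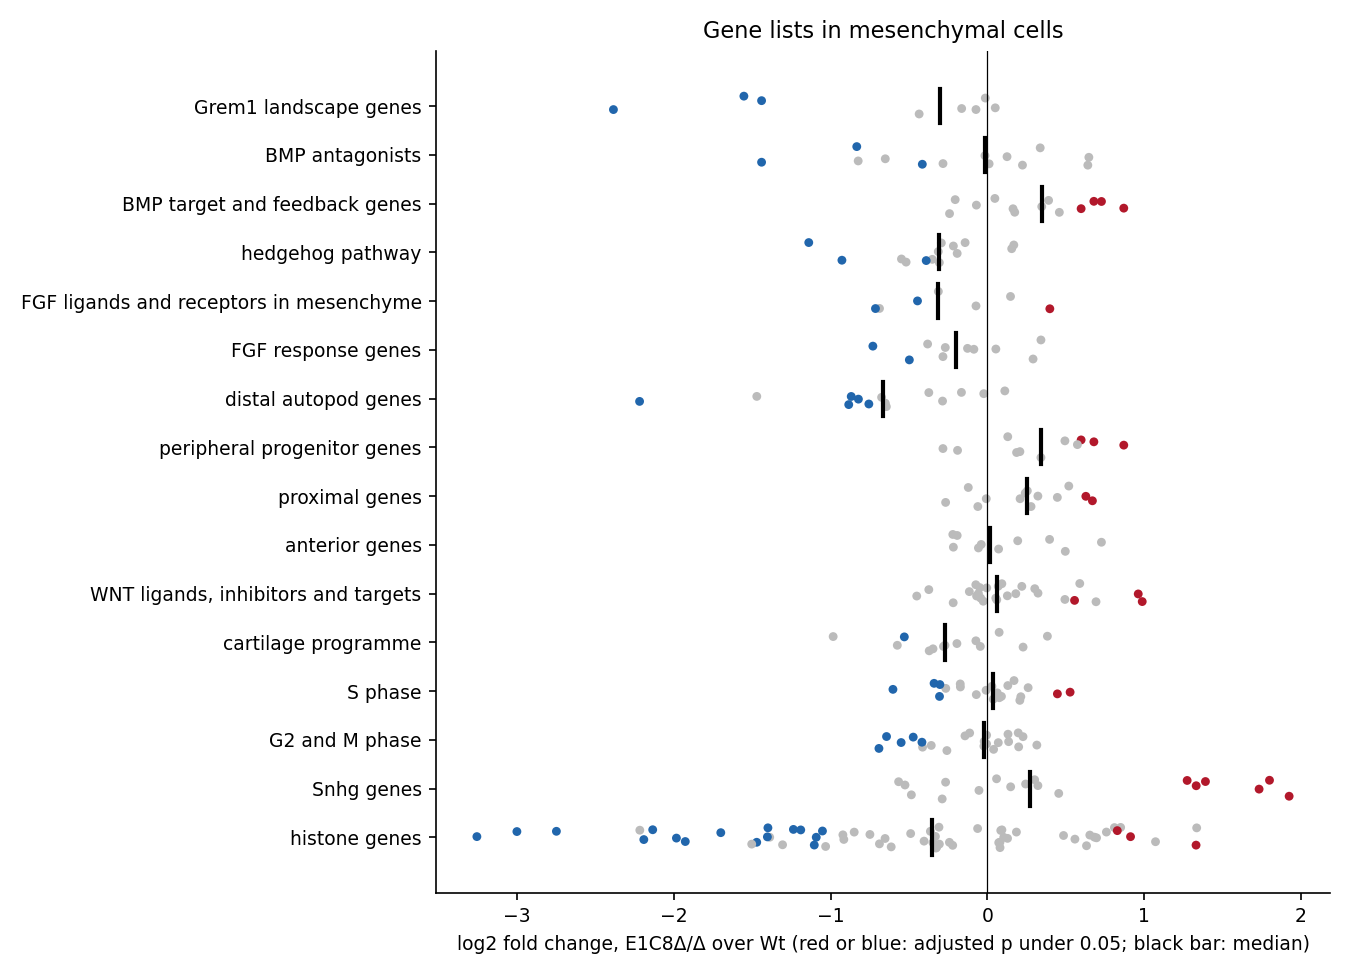
Log2 fold change of E1C8Δ/Δ over Wt (x axis) for each tested gene of 16 lists, in red (higher) or blue (lower) where the adjusted p was under 0.05, with the median of each list as a black bar. Medians run from -0.66 for distal autopod genes to 0.35 for BMP targets, and the histone genes spread furthest, from -3.26 to 1.34.

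Genes outside the signalling pathways also changed. *Snhg* genes host small nucleolar RNAs in their introns. Their spliced transcripts code for no protein, and several are known to be degraded when ribosomes meet their early stop codons. Of 18 *Snhg* features tested (33.3% passed, against 8.4% of all genes) 6 rose and none fell. *Snhg5* was at 45.2, 45.3 and 31.1 CPM in Wt and at 152, 144 and 168 CPM in E1C8Δ/Δ, 3.8-fold higher (log2 change 1.93 ± 0.144, adjusted p = 0.000738). *Snhg16* was at 15.4, 14.2 and 12.8 CPM against 62.3, 41.3 and 46.1 CPM, 3.48-fold higher. *Snhg15* rose by 1.73 on the log2 scale and *Snhg17* by 1.39. *Snhg12* rose by 1.33, and *Snhg1*, the most abundant of the 6, went from 274, 281 and 190 CPM to 584, 610 and 611 CPM, by 1.27. For each of the 6 every E1C8Δ/Δ library lay above every Wt library, which largely follows from the call, as it held for 514 of the 517 genes that rose. Over the whole list 8 of 18 lay so, against 15.5% of all genes. All 6 passed without each library in turn and with the covariate for sex, where the highest adjusted p was 0.0344. The other 12 did not pass, and 6 of them had negative log2 changes, down to -0.57. *Gas5*, another host gene on the list, had a log2 change of 0.24 (adjusted p = 0.339).

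The starts of the 6 genes that rose are shown because these genes moved together. Each line gives 30 bases of RefSeq (GRCm38.p6), 15 before the transcript start and 15 from it on, and capitals mark the longest run of C and T anywhere in the bases after the start.
Snhg1, chr19:8723472-8723501, plus strand: gttgttcttgtcggcctcaTTTTTCCTTgt
Snhg5, chr9:88522883-88522912, minus strand: gagctgcggtgaaccgggctcgTTCTTTTa
Snhg12, chr4:132308663-132308692, plus strand: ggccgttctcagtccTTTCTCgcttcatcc
Snhg15, chr11:6528746-6528775, minus strand: cgctgctgtgaccgtaaCTTTaagcacacg
Snhg16, chr11:116671645-116671674, plus strand: actgcgcgcaagcgcgatctcgTCCTTTCC
Snhg17, chr2:158361508-158361537, minus strand: ccgccagcgcccatcgtgaagaCCacagtt
A run of at least 5 was present in 4 of the 6 starts and in 25.5% of 11641 tested genes with a start listed. The longest were 9 bases in *Snhg1* and 8 in *Snhg16*. The run began at base 1 of the transcript in *Snhg12*, at base 3 in *Snhg15*, at base 5 in *Snhg1* and at base 8 in *Snhg5*, *Snhg16* and *Snhg17*. *Snhg17* has 2 starts listed, of which 1 is shown. Starts of the *Snhg* genes that did not pass were not examined. The count describes these windows only and does not set the genes that rose apart from other *Snhg* genes.

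Of 62 histone genes tested 16 fell, 3 rose and 43 did not pass, so that 30.6% passed against 8.4% of all genes. *Hist1h2ae* was at 337, 512 and 402 CPM in Wt and 151, 190 and 206 CPM in E1C8Δ/Δ, 2.28-fold lower (adjusted p = 0.0077). *Hist1h1e*, a linker histone gene, fell by 1.10 and *Hist2h2ac* by 1.40 on the log2 scale. The genes that rose were *Hist2h2be* by 1.33, *Hist3h2a* by 0.91 and *Hist1h2ac* by 0.83. Most histone genes of the S phase make messages without a poly(A) tail, which oligo(dT) priming captures poorly, and many are near-identical copies, so that their counts are uncertain. The gene with the largest fall on the list, *Hist1h2ap*, varied from 496 to 1987 CPM within Wt and from 32.6 to 333 CPM within E1C8Δ/Δ. Without E1C8Δ/Δ replicate 2 the calls of *Hist1h1e*, *Hist2h2ac*, *Hist3h2a*, *Hist1h2ac* and *Hist1h2ap* were lost, all but *Hist1h1e* and *Hist3h2a* also without other libraries, with adjusted p up to 0.0696, 0.0772, 0.0601, 0.0721 and 0.136. Without Wt replicate 2 the log2 change of *Hist2h2ac* was -0.92.

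Among genes of the cell cycle, 5 of 22 in G2 and M phase fell and none rose, 22.7% against 8.4% of all genes. *Mki67*, the gene for the proliferation marker Ki-67, was at 306, 295 and 272 CPM in Wt and 173, 195 and 191 CPM in E1C8Δ/Δ, a log2 change of -0.64 ± 0.0853 (adjusted p = 0.0068). The mitotic kinesin genes *Cenpe* and *Kif11* and the spindle genes *Nusap1* and *Tpx2* fell by 0.42 to 0.69. Of 21 S phase genes 4 fell and 2 rose, 28.6% of the list. The replication helicase genes *Mcm2* and *Mcm4*, the nucleotide reductase gene *Rrm1* and the chromatin remodeller gene *Hells* fell, by 0.30 to 0.60, while *Ung*, a DNA repair gene, rose by 0.45 and *Rpa2*, which binds single-stranded DNA, by 0.53. The medians of both lists were close to 0, at -0.021 and 0.038. The 5 G2 and M phase genes that fell have 4059 to 10061 bases of exon. Apart from *Mki67*, each of these was lost without E1C8Δ/Δ replicate 1 or 2, most also without replicate 3 or Wt replicate 2, with adjusted p from 0.0605 for *Ung* to 0.187 for *Mcm2*.

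**Figure D4:**
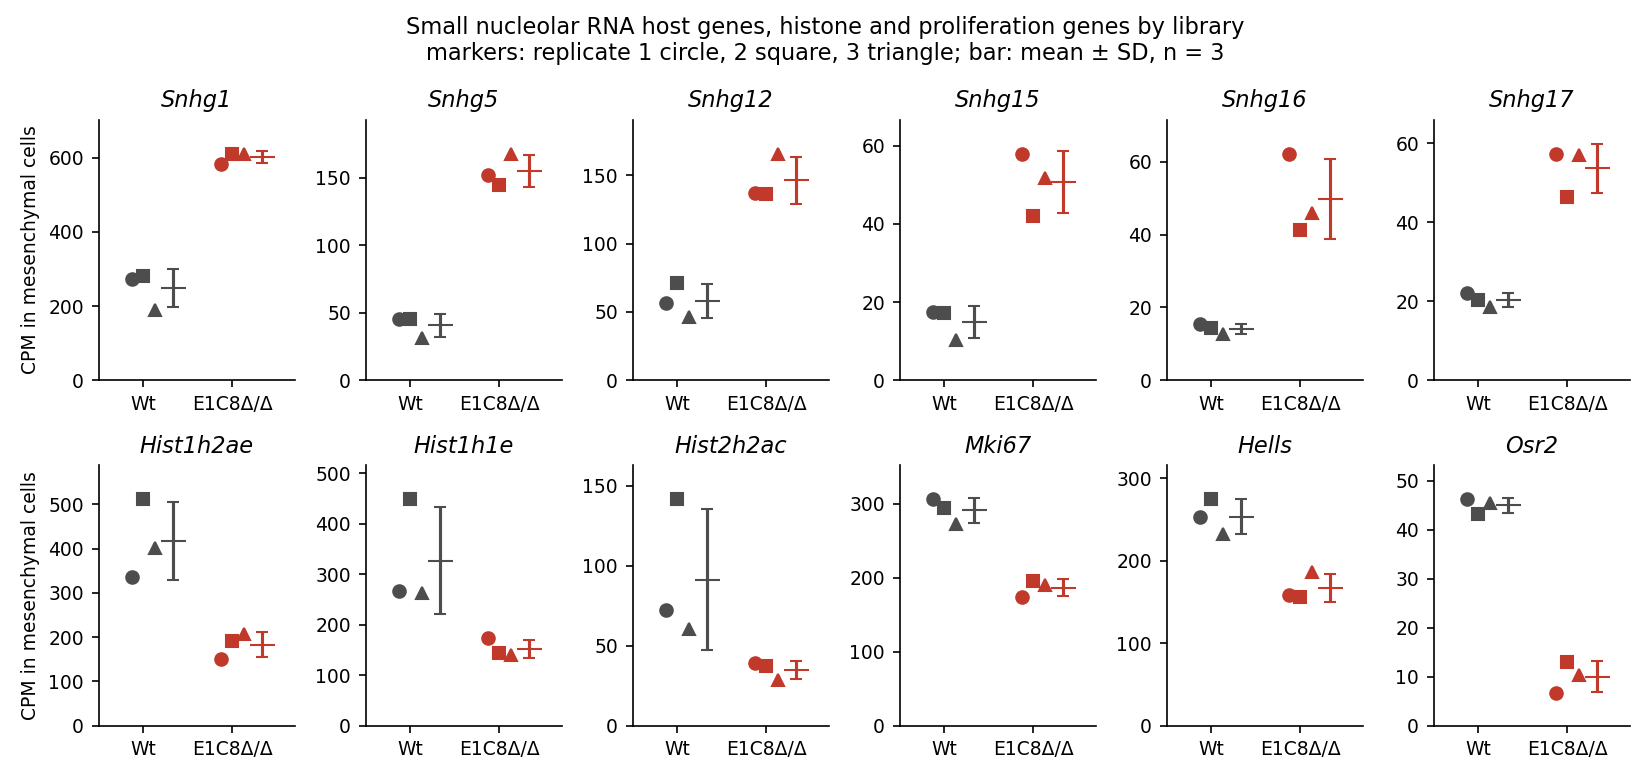
Levels (CPM, y axes from 0) of 6 *Snhg* genes, 3 histone genes, *Mki67*, *Hells* and *Osr2* in the 3 Wt (grey) and 3 E1C8Δ/Δ (red) libraries, with bars for the mean ± SD. In all 12 panels the groups do not overlap, as for 514 of the 517 genes that rose and 828 of the 830 that fell. The *Snhg* genes are the ones that are higher in E1C8Δ/Δ.

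Stress genes rose in part. Of 22 immediate early and heat shock genes 5 rose and none fell, 22.7% against 8.4% of all genes. Among them were *Ier2*, up by 0.59, and the phosphatase gene *Dusp1*, up by 0.53. The chaperone gene *Hspa1b* rose by 1.21, from 0.868, 0.574 and 0.473 CPM to 1.54, 1.19 and 1.85 CPM. The chaperone genes *Dnajb1* and *Hspb1* rose by 0.33 and 0.67. Of 17 genes of hypoxia and glycolysis 4 rose and 1 fell, 29.4% of the list. *Ddit4*, a stress-induced inhibitor of mTOR, went from 14.0, 19.0 and 21.9 CPM to 35.3, 33.2 and 36.7 CPM, a log2 change of 0.95 (adjusted p = 0.011). *Vegfa*, *Ldha* and *Ankrd37* rose by 0.56, 0.48 and 0.44, and the hexokinase gene *Hk2* fell by 0.61. All but *Ddit4* were lost without E1C8Δ/Δ replicate 1 or 2 and without other libraries, with adjusted p from 0.076 for *Dusp1* to 0.177 for *Hk2*. With the covariate for sex the log2 changes of *Ier2* and *Hk2* were 0.38 and -0.41.

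Ribosomal protein genes had a median log2 change of 0.031 over 78 genes, close to that of all genes. Of these 6 fell and 1 rose (*Rpl5*, by 0.36), and 84 nuclear genes of the respiratory chain had 4 falls and 1 rise. These shares, 8.97% and 5.95%, lie near the 8.4% of all genes that passed. *Rpl35* fell most of the ribosomal protein genes, from 1535, 2264 and 2058 CPM to 471, 559 and 963 CPM, by 1.55. Both calls were lost without E1C8Δ/Δ replicate 2, among other libraries for *Rpl5*, with adjusted p up to 0.131 for *Rpl5* and 0.0602 for *Rpl35*. With the covariate for sex the log2 change of *Rpl35* was -1.02 (adjusted p = 0.144).

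Markers of other cell types were present at low levels. Summed over the list, ectodermal markers were at 11.9 to 12.7 CPM in Wt and 13.6 to 18.1 CPM in E1C8Δ/Δ, and muscle markers at 3.56 to 4.99 and 6.62 to 14.0 CPM. *Perp*, *Krt5* and *Krt14* of 11 ectodermal genes rose, each at no more than 1.28 CPM, as did *Msc* of 6 muscle genes, at no more than 0.381 CPM. Of the 2 lists 27.3% and 16.7% passed, against 8.4% of all genes. These 4 calls were lost without any 1 of the E1C8Δ/Δ replicates and without Wt replicate 1, with adjusted p up to 0.0852 to 0.222. Without Wt replicate 2 the log2 change of *Krt14* was 2.81, against 1.79 with all libraries. With thinned cells the change of *Msc* was 0.65 (adjusted p = 0.427). Endothelial markers summed to 15.9 to 17.3 CPM in Wt and 18.3 to 21.9 CPM in E1C8Δ/Δ with no call among 7 genes, and macrophage markers to at most 2.20 CPM in any of the 6 libraries. None passed among 4 macrophage, 5 megakaryocyte and 3 neural crest and Schwann genes. The defining markers *Lbx1*, *Epcam*, *Cdh5* and *Tyrobp* are at 0 by the rule. Erythroid genes were high, at 2732 to 8963 CPM in Wt and 5282 to 14343 CPM in E1C8Δ/Δ, and 1 of 8, the globin gene *Hbb-bt*, passed. The part of these cells in the other results was not tested beyond the following alternatives. Without mixed-lineage cells 1431 genes passed and without doublets 1324. Erythroid genes were not among the markers of mixed-lineage cells, so that alternative does not address erythroid RNA. With ribosomal protein and globin genes left out of the test, 1354 genes passed.

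The genes with the largest changes among those at 5 CPM or more, with no overlap between libraries, were taken by rule, 10 per direction. Many are predicted gene models or members of multicopy families, whose reads can be shared with near-identical copies and whose values are uncertain. Among those that rose, *Gm10320* was at 1.85 to 2.40 CPM in Wt and 73.0 to 95.8 CPM in E1C8Δ/Δ, 40.0-fold higher. In E1C5Δ/Δ it was at 222, 104 and 0.710 CPM, so that it varied between embryos of one genotype. *Gm11361* rose by 2.22 on the log2 scale, *Gm266* by 1.68, *Nutf2-ps1* by 1.56 and the non-coding *5430416N02Rik* by 1.48, beside *Snhg5*, *Snhg16* and *Snhg15*. *Acaa1a*, which codes for a peroxisomal thiolase, went from 20.2, 13.3 and 11.4 CPM to 44.6, 40.2 and 42.0 CPM. *Hbb-bt* rose by 1.88, but its share of cells with a UMI changed sign with depth and single libraries.

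Among those that fell, *Osr2*, a zinc finger transcription factor gene of the developing limb, was the one developmental regulator beside *Tfap2b*. It was at 46.3, 43.2 and 45.4 CPM in Wt and 6.59, 13 and 10.4 CPM in E1C8Δ/Δ, 4.32-fold lower (log2 change -2.11 ± 0.185, adjusted p = 0.00148, and 0.0266 with the covariate for sex). *Eif3j2*, a translation initiation factor gene with a near copy, *Eif3j1*, fell by 3.39, while *Eif3j1* had a log2 change of -0.82 (adjusted p = 0.0908). The histone genes *Hist1h2ap*, *Hist1h4h*, *Hist1h3b* and *Hist1h4a* fell by 1.98 to 3.26. *Gm4737*, *Gm10076* and *1810009A15Rik* complete the set, with falls of 2.99, 2.79 and 2.13. *Gm10076* was at 801, 1388 and 1694 CPM in Wt and at 77.4, 129 and 353 CPM in E1C8Δ/Δ. *Nutf2-ps1*, *Gm10076*, *1810009A15Rik*, *Gm4737*, *Hist1h4h*, *Hist1h3b* and *Hist1h4a* were lost without E1C8Δ/Δ replicate 2, all but *Nutf2-ps1* and *Gm10076* also without replicate 1, with adjusted p from 0.0508 for *Nutf2-ps1* to 0.12 for *Hist1h3b*. With the covariate for sex the log2 changes of *Nutf2-ps1*, *Hist1h2ap*, *Gm10076* and *1810009A15Rik* were 0.95, -2.08, -1.88 and -1.48. Without Wt replicate 2 those of *Hist1h3b* and *Hist1h4h* were -1.38 and -2.16, and without Wt replicate 3 that of *Gm4737* was -2.03.

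The direction of change followed the length of the gene. Genes were split into 5 groups of equal number by the bases in their exons. In the shortest group, of up to 2031 bases, 171 genes rose and 73 fell, 5.33% and 2.28% of the group. In the longest group, of 7138 bases or more, 27 rose and 404 fell, 0.842% and 12.6%. The median log2 change went from 0.11 in the shortest to -0.15 in the longest. By the length of the gene on the chromosome it went from 0.10 to -0.13. Wt replicate 1 stood furthest out, with the median gene of the longest group 0.167 above the mean of the 6 libraries on the log2 scale, against 0.0574 and 0.00573 in Wt replicates 2 and 3. The E1C8Δ/Δ libraries lay at -0.0993, -0.0391 and -0.0715. The difference in medians between the shortest and the longest group, 0.26 over all 6 libraries, was 0.18 without Wt replicate 1. With an offset for gene length in the fit, 443 genes were higher and 573 lower. *Grem1* (4148 bases) passed with this offset (adjusted p = 0.00748), as did *Tfap2b*, *Osr2*, *Id3*, *Bambi*, *Msx1*, *Msx2*, *Hoxd13*, *Hhip*, *Shh*, *Hand2*, *Etv5* and the 6 *Snhg* genes. Of the 88 named genes that passed without the offset 18 did not pass with it, namely *Jag1*, *Fgfr1*, *Etv1*, *Smad5*, *Wwp2*, *Gsc*, *Pdgfra*, *Twist1*, *Mcm2*, *Rrm1*, *Hk2*, *Ankrd37*, *Dnajb1*, *Hspa1b*, *Hspb1*, *Krt5*, *Krt14* and *Msc*. With cells thinned to 10000 UMIs each, 455 were higher and 555 lower, and 18 of the 88 did not pass, namely *Shh*, *Hand2*, *Jag1*, *Fgf18*, *Etv1*, *Gja3*, *Cyp26b1*, *Smad5*, *Rarb*, *Kif11*, *Mcm2*, *Mcm4*, *Rrm1*, *Hk2*, *Ankrd37*, *Dnajb1*, *Hspb1* and *Msc*. The direction of change varied with gene length here, and depth per cell differed between the genotypes. The parts of length and depth in single calls cannot be told apart from that of the allele.

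**Figure D5:**
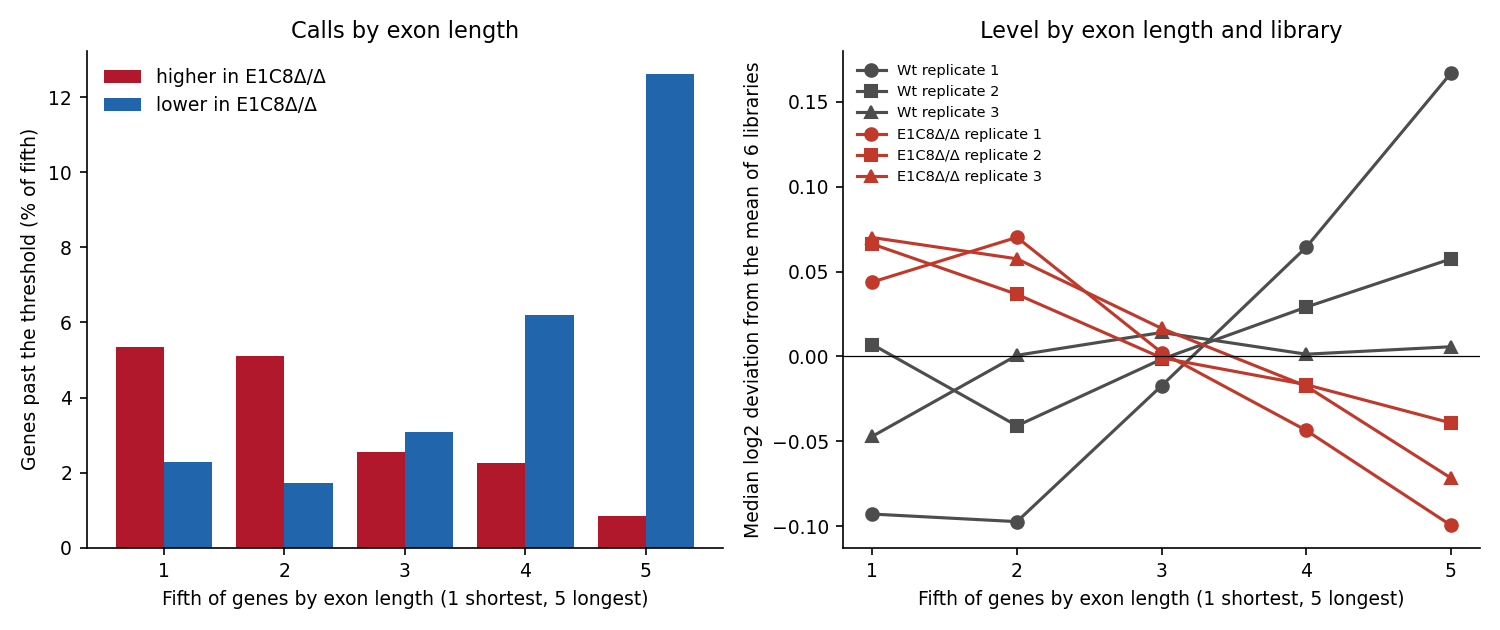
Left, the share of genes that passed the threshold in each of 5 groups by exon length (x axis), higher (red) or lower (blue) in E1C8Δ/Δ. Right, the median deviation of the genes of a group from their mean over 6 libraries (log2) in each library. Falls make up 12.6% of the longest group against 2.28% of the shortest, and the lines of the 3 E1C8Δ/Δ libraries slope down while that of Wt replicate 1 slopes up most.

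Cells thinned to 10000 UMIs were also counted by whether they held a UMI of a gene, which leaves out 305 Wt and 829 E1C8Δ/Δ cells of lower depth. *Grem1* was found in 17.9%, 14.5% and 9.36% of Wt cells and in 5.77%, 8.55% and 8.51% of E1C8Δ/Δ cells. The Wt libraries lay above the E1C8Δ/Δ libraries, the difference of the means was -6.28 percentage points, and the exact two-sided permutation test gave p = 0.1, the smallest that 3 against 3 libraries allow. On all UMIs the means were 28.1% and 14.0%. Cells with *Grem1* held 2.02 ± 0.203 UMIs of it in Wt and 1.51 ± 0.230 in E1C8Δ/Δ (SD, n = 3). Erythroid cells, which should lack *Grem1*, held it in 0.93% of thinned cells and 3.16% of cells with all UMIs, at median depths per library from 22972.5 to 78391.5 UMIs.

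Shares of other genes are given with those in erythroid cells, thinned in the same way. *Osr2* went from 22.6% ± 0.707 to 7.40% ± 2.20 of cells and *Tfap2b* went from 6.42% ± 0.856 to 2.71% ± 0.667 (SD, n = 3), against 0.682% and 1.30% in erythroid cells. *Hoxd13* was in 18.9% of Wt and 13.2% of E1C8Δ/Δ cells on average (2.11% of erythroid cells). *Msx1* was in 35.4% and 49.1% (6.57%) and *Msx2* in 15.5% and 27.8% (1.36%). *Snhg5* was in 28.6% and 69.6% (12.5%). *Asb4* was in 78.0% and 87.0% (15.9%) and *Lhx2* in 40.8% and 49.5% (3.78%), but on all UMIs these differences were 2.38 and 2.52 percentage points, and the summed levels of both did not pass the test above. The thinned shares of these genes did not overlap between genotypes and reached the lowest possible exact permutation p of 0.1. For *Osr2*, *Tfap2b* and *Snhg5*, taken by the rule above, levels without overlap had been required, so this outcome was nearly fixed in advance. How many of all genes have shares without overlap was not counted, and by level it was 32.6%. *Jag1* (6.88% and 4.99%, 0.558% of erythroid cells, exact permutation p = 0.3), *Hoxa13* (5.71% and 4.39%, 0.496%, exact permutation p = 0.2) and *Ptch1* (35.5% and 29.4%, 14.2%, exact permutation p = 0.2) overlapped between genotypes.

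The E1C5Δ/Δ libraries, which carry the EC1 deletion with a deletion of CRM5 in place of CRM8, gave a direct comparison of the alleles in a fit of all 9 libraries. *Grem1* was at 19.8, 17.8 and 25.7 CPM in E1C5Δ/Δ, and E1C8Δ/Δ was lower by 0.82 ± 0.194 on the log2 scale (adjusted p = 0.026). This difference in RNA did not pass without E1C5Δ/Δ replicate 3 or without E1C8Δ/Δ replicate 1 or 2, with adjusted p up to 0.0974 and a log2 difference of *Grem1* between -0.98 and -0.64 over the alternatives. Over all 16244 genes 1574 differed (9.69%), 680 higher (4.19%) and 894 lower (5.5%) in E1C8Δ/Δ. The number was 337 without E1C8Δ/Δ replicate 2, 516 without replicate 3 and 668 without replicate 1, 717 and 1012 without E1C5Δ/Δ replicates 2 and 3, and 943 with thinned cells. *Tfap2b* was at 2.33, 2.47 and 3.84 CPM in E1C5Δ/Δ, a difference from E1C8Δ/Δ of 0.23 ± 0.200 (SE, adjusted p = 0.509), and *Hhip*, *Shh*, *Hoxd13* and *Fmn1* did not pass in this contrast either. Of the 13 BMP target genes, *Id2*, *Id3*, *Msx2*, *Smad6* and *Bambi* were higher in E1C8Δ/Δ than in E1C5Δ/Δ, none was lower and 8 did not pass, with a median log2 difference of 0.48 against 0.0032 over all genes. *Id3* was at 252, 290 and 218 CPM and *Msx2* at 30.3, 40.9 and 29.5 CPM in E1C5Δ/Δ, and E1C8Δ/Δ was higher by 0.62 (adjusted p = 0.0104) and 0.84 (adjusted p = 0.0116). *Bambi* differed by 0.56, *Dkk1* by 0.80 and *Wnt11* by 1.07. With a library left out *Id3*, *Bambi* and *Wnt11* passed in each case. *Id2* and *Smad6* were lost without E1C5Δ/Δ replicate 1 or 2 or any 1 of the E1C8Δ/Δ replicates, *Dkk1* without E1C5Δ/Δ replicate 1 or 3 or E1C8Δ/Δ replicate 1 or 2, and *Msx2* without E1C8Δ/Δ replicate 2, with adjusted p up to 0.143, 0.133, 0.0824 and 0.0546. *Id2* and *Smad6* did not pass with a covariate for sex either. The 6 *Snhg* genes were higher in E1C8Δ/Δ than in E1C5Δ/Δ by 0.96 to 1.64, *Mki67* was lower by 0.65 and *Hist1h1e* by 1.68. *Gm10320*, which spread widely in E1C5Δ/Δ, did not pass (adjusted p = 0.855). This comparison and that with Wt share the E1C8Δ/Δ libraries. The 3 E1C5Δ/Δ libraries are 2 females and 1 male, like those of E1C8Δ/Δ, and with a covariate for sex 1171 genes differed between the alleles.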

How the data were processed

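The authors deposited raw counts, the UMIs per feature in each barcode that Cell Ranger 6.0.1 called as a cell (mm10, 10x 3′ chemistry), before filters on cells. Seurat 4.3.0.1 is named in the processing notes and was not needed here. Of 32289 features, GENCODE M21 placed 32235. Cells were chosen as stated in the report and their UMIs summed per library, giving 13742401 to 226471321 UMIs in the genes tested. Features on X or Y (1809), mitochondrial genes, 4 transgenes and the 5 genes of the cell rule were not tested. The sums were fitted with edgeR 4.0.16 (TMM, filterByExpr with a minimum count of 10, quasi-likelihood, Benjamini-Hochberg adjustment) in R 4.3.3, E1C8Δ/Δ against Wt over 6 libraries and against E1C5Δ/Δ over 9. DESeq2 1.42.0 and limma 3.58.1 (voom) served as alternatives. Named genes are *Grem1*, members of fixed lists and, per direction, the 10 largest changes past the threshold at 5 CPM or more without overlap of libraries. The cells and lists were chosen with earlier results of these data known. *Eif3j1* and the chosen low-level genes in the closing section were named after their values were seen. On simulated counts of 15871 genes, 61.9% of 97 genes with a log2 change of 1 and 24.2% of 99 with 0.5 were recovered, with 8 false calls. The simulation held no sex difference, length trend or difference in depth per cell, so it gives no rate of false calls for the real comparison. Promoter sequences are from RefSeq. Doublets were scored from artificial doublets. Intervals over cells were not used, and p-values measure the spread between embryos.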

Additional observations from a re-analysis of the deposited data

How the results depend on the processing

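DESeq2 called 2157 genes (896 higher, 1261 lower) and limma with quality weights 2504 (1065 and 1439), against 1347 in edgeR. A covariate for embryo sex left 35 (25 and 10), the same covariate over all 9 libraries, added after seeing the data, 79 (35 and 44), and male libraries alone, also added, 24 (18 and 6). Leaving out each library gave 154 to 2117 calls, 85 to 841 higher and 69 to 1276 lower. Without E1C8Δ/Δ replicate 1 and Wt replicate 3 together, the libraries with the fewest cells, 687 were called (255 and 432; added). The replicate number as a block gave 914 calls, 344 of them higher. Same-numbered E1C8Δ/Δ and Wt libraries correlated at 0.0202, -0.0132 and 0.016 over all genes, within the -0.0638 to 0.046 of pairs with different numbers. A shared batch that moves part of the genes was not tested, nor was pairing with the E1C5Δ/Δ libraries. The other filters, scalings, cell rules and the thinnings kept the main count within 1.5 times. E1C8Δ/Δ against E1C5Δ/Δ gave 764 calls with the block, 943 with thinned cells and 337 to 1078 with a library left out, against 1574. With the block *Grem1*, *Dkk1*, *Id2* and *Smad6* did not pass between the alleles, with adjusted p from 0.0557 for *Smad6* to 0.0898 for *Id2*. Against Wt, *Grem1* passed in every alternative except the sex covariate over 6 libraries (-1.20, adjusted p = 0.122) and male libraries. The change in male libraries was -1.18, with 1 E1C8Δ/Δ library assumed to vary like Wt. The log2 change of *Grem1* with a library left out lay between -1.58 and -1.23. Its difference in the share of cells was -6.28 points in thinned cells, -14.1 on all UMIs and -8.55 to -4.30 with a library left out. *Id1* reversed to -0.11 with the sex covariate and -0.096 in male libraries, and the share of cells with *Hbb-bt* from 1.10 points to -3.26 on all UMIs, -0.426 without Wt replicate 3 and -0.248 without E1C8Δ/Δ replicate 2, with up to 2.70 without E1C8Δ/Δ replicate 1. The number of *Grem1* neighbours called lay between 2 and 5 with a library left out, and the difference in median log2 change between the shortest and longest genes between 0.18 and 0.31. For the reversed and moved values the cause was not tested. The few cells in E1C8Δ/Δ replicate 1 (411) and Wt replicate 3 (591) limit what can be read at low levels.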

Other observations

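Some genes under 5 CPM were nearly absent from one genotype. They were picked after their values were seen. *Gm16223* was at 1.07, 1.09 and 0.878 CPM in Wt and at 0, 0.00762 and 0 CPM in E1C8Δ/Δ, while the E1C5Δ/Δ mean was 0.935 CPM. *Ceacam10* and *S100a2* were at up to 0.0338 CPM in Wt and at 0.383 to 0.488 and 0.411 to 0.771 CPM in E1C8Δ/Δ. *Lypd10* spread over a wide range within E1C8Δ/Δ, at 8.56, 2.13 and 0.383 CPM, and was at or close to 0 in Wt. *Mnx1*, a homeobox gene, was at 0.53, 0.491 and 0.945 CPM in Wt, at 0.14, 0.0457 and 0.112 CPM in E1C8Δ/Δ and at 0.0242 CPM on average in E1C5Δ/Δ. Among non-coding genes 49 of 2257 rose and 31 fell, 2.17% and 1.37%, and among protein-coding genes 467 of 13771 rose and 799 fell, 3.39% and 5.8%.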
